A study of Mus musculus with 46 samples.

Results

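The genes described here are 8 mouse genes of the DNA damage checkpoint and of DNA repair: Rad1, Nbn, Xpa, Fancg, Rad54b, Mms22l, Aptx and Pot1a. They were chosen by name, as the rows of the deposited count table whose Ensembl identifiers belong to these genes in GENCODE M21, with a mean of at least 5 CPM (counts per 1000000 counts of the library). All 8 met that minimum, out of 55416 rows in all. They lie in 3 stretches of GRCm38, on chromosome 15 (9.07 to 37.01 Mb), chromosome 4 (5.64 to 55.53 Mb) and chromosome 6 (13.83 to 31.56 Mb), which together hold 1205 rows and 7.98% of the counts. Only in these stretches were row identifiers taken to name the genes they stand for, because levels elsewhere did not follow the names. Of protein-coding rows, 67.3% reached 1 CPM inside the stretches and 34.7% elsewhere. The median level of 78 rows named for ribosomal proteins outside them was 0.194 CPM. The row of Atf4 itself lies outside, and whether that transcript was lost in the KO line was not analysed here.

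The study asked which transcripts of mouse embryonic fibroblasts (MEFs) follow the activity of ATF4, a transcription factor made when amino acids or charged tRNAs run short. Cells of 2 lines were given borrelidin, an inhibitor of threonyl-tRNA synthetase, at 600 nM in DMSO, or DMSO alone as vehicle, for 7 h. The wild type (WT) MEFs were purchased and the ATF4 KO line was made in house with CRISPR/Cas9, so loss of ATF4 and any other difference between the lines cannot be told apart. RNA-seq gave 12 libraries of WT with borrelidin, 11 of WT with vehicle, 12 of ATF4 KO with borrelidin and 11 of ATF4 KO with vehicle, labelled as biological replicates, and p values measure only the spread among libraries of a line and not among independent knockouts.

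DNA damage is first sensed by protein complexes that sit on broken or single-stranded DNA and pass the signal to checkpoint kinases. Separate pathways then excise damaged bases, unlink crosslinked strands, repair breaks by copying an intact sequence, restart stalled replication forks and cap chromosome ends. Fibroblasts in culture use these pathways during each round of replication.

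Each library held 2047362 to 3467765 counts, and the 8 genes had 104 to 933 counts in a library, which sets the precision of each value. In 3 of the 4 groups some libraries, 14 in all, stood apart from the others of their group on the second principal component of the 500 most variable rows, which held 21.9% of the variance. These were replicates 1 to 8 of WT with vehicle, 1 to 3 of ATF4 KO with borrelidin and 1 to 3 of ATF4 KO with vehicle, and none of WT with borrelidin. The WT comparison therefore set 12 libraries of one kind against 8 set apart and 3 others, and the changes of the 8 genes are given with all 46 libraries and without the 14. Fibroblast genes within the stretches (6, led by Cav1, the coat protein of caveolae) summed to 394 to 579 CPM in WT with borrelidin and 614 to 867 CPM in WT with vehicle. In ATF4 KO they summed to 669 to 832 CPM with borrelidin and 906 to 1234 CPM with vehicle. These sums mostly follow Cav1 and Cav2 (means of 432 and 164 CPM), and the list was split in direction. In WT Cav1, Cav2 and Reck changed with borrelidin by -0.59, -0.60 and -0.76 on the log2 scale, and Osr2, Tgfbr1 and Mest by 0.10, 0.16 and 0.21. In ATF4 KO Cav1 and Cav2 changed by -0.70 and -0.87, and Osr2, Reck, Tgfbr1 and Mest by 0.59, 0.50, 0.11 and 0.03. The usual defining genes of fibroblasts, such as collagen genes and Vim, lie outside the stretches (0 of 6 inside) and were not read. Of 8 genes of other cell types, the row of the B cell gene Cd72 had a mean of 92.3 CPM, and the other 7 together held 9.53 to 24.9 CPM in WT with borrelidin, 3.79 to 15.6 CPM in WT with vehicle, 17.1 to 51.4 CPM in ATF4 KO with borrelidin and 13.0 to 25.6 CPM in ATF4 KO with vehicle. Of the 7, 1 (Lep, of adipocytes) had no count in any library of WT with borrelidin. The part of these marker levels in the results was not tested, and in bulk RNA fewer cells with a transcript and less of it per cell cannot be told apart.

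Promoter windows of 300 bases, 250 before and 50 after a gene's start, were found in RefSeq (GRCm38.p6) for 6 of the 8 genes, in 8 windows. Nbn and Rad54b had no entry. Windows were searched on both strands for 4 kinds of words, chosen after the windows had been read: the ATF4 element (ATTGCATCA, ATTTCATCA, GTTGCATCA or GTTTCATCA), the cyclic AMP response element (TGACGTCA), the E2F site (TTTCCCGC, TTTGGCGC, TTTCGCGC or TTTGCCGC) and the ETS site (CCGGAAGT). The ATF4 element was in none of the 8 windows and in 0.837% of all 32851 promoter windows. The cyclic AMP response element was in 1 window each of Aptx and Pot1a and in 1.79% of all windows. An E2F word was in the window of Fancg and in 2.26% of all windows, and the ETS word was in both windows of Rad1, which overlap, and in 3.89% of all. The 4 windows that follow are shown because they hold a word, which is in capitals. They are given on the strand of the gene, at chr4:40703145-40703444 (minus) for Aptx, chr6:25809169-25809468 (minus) for Pot1a, chr4:43010252-43010551 (minus) for Fancg and chr15:10485768-10486067 (plus) for Rad1.
Aptx: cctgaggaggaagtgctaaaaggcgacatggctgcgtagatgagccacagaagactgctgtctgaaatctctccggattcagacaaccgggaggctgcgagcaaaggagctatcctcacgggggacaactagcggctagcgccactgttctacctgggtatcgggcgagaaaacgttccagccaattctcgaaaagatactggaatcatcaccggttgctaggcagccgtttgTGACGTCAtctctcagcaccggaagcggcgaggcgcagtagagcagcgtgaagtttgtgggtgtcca
Pot1a: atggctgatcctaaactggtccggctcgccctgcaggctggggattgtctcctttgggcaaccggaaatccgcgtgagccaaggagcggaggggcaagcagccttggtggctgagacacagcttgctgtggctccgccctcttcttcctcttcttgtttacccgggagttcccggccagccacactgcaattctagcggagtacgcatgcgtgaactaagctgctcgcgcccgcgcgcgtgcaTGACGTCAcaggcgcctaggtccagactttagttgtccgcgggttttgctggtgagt
Fancg: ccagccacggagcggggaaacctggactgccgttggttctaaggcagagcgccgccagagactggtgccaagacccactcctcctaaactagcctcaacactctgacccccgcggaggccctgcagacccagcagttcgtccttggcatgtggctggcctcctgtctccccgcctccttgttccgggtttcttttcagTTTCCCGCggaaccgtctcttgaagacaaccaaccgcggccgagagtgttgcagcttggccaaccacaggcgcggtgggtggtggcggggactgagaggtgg
Rad1: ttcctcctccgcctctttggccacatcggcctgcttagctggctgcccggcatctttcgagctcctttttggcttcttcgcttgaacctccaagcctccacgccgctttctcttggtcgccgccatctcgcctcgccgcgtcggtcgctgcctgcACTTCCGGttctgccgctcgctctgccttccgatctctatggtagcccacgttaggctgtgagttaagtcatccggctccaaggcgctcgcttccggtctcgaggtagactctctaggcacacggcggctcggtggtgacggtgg
A match is a description of the letters and shows no binding.

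Compared per length of exon, levels over the 46 libraries were highest for Nbn (80.5 CPM per kb) and Xpa (71.7 CPM per kb). Mms22l followed with 33.6, Rad54b with 20.5, Fancg with 19.5, Aptx with 16.1, Rad1 with 10.1 and Pot1a with 6.97 CPM per kb. The group means of Nbn (68.0 to 96.1 CPM per kb) overlapped those of Xpa (60.1 to 87.1 CPM per kb), and so did those of each pair of neighbours from Rad54b down to Pot1a. The order changed with the group for Nbn and Xpa, Rad54b and Fancg, Fancg and Aptx, and Fancg and Rad1. Rad1 lay above Fancg in WT with borrelidin (15.7 against 14.6 CPM per kb) and below it in the other groups. Aptx stayed above Rad1, and Rad1 above Pot1a, in the mean of every group. Mms22l overlapped neither neighbour (28.6 to 39.6 CPM per kb). Levels of single genes are CPM after trimmed mean of M-values (TMM) scaling and differences are log2 fold changes from edgeR.

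**Figure D1:**
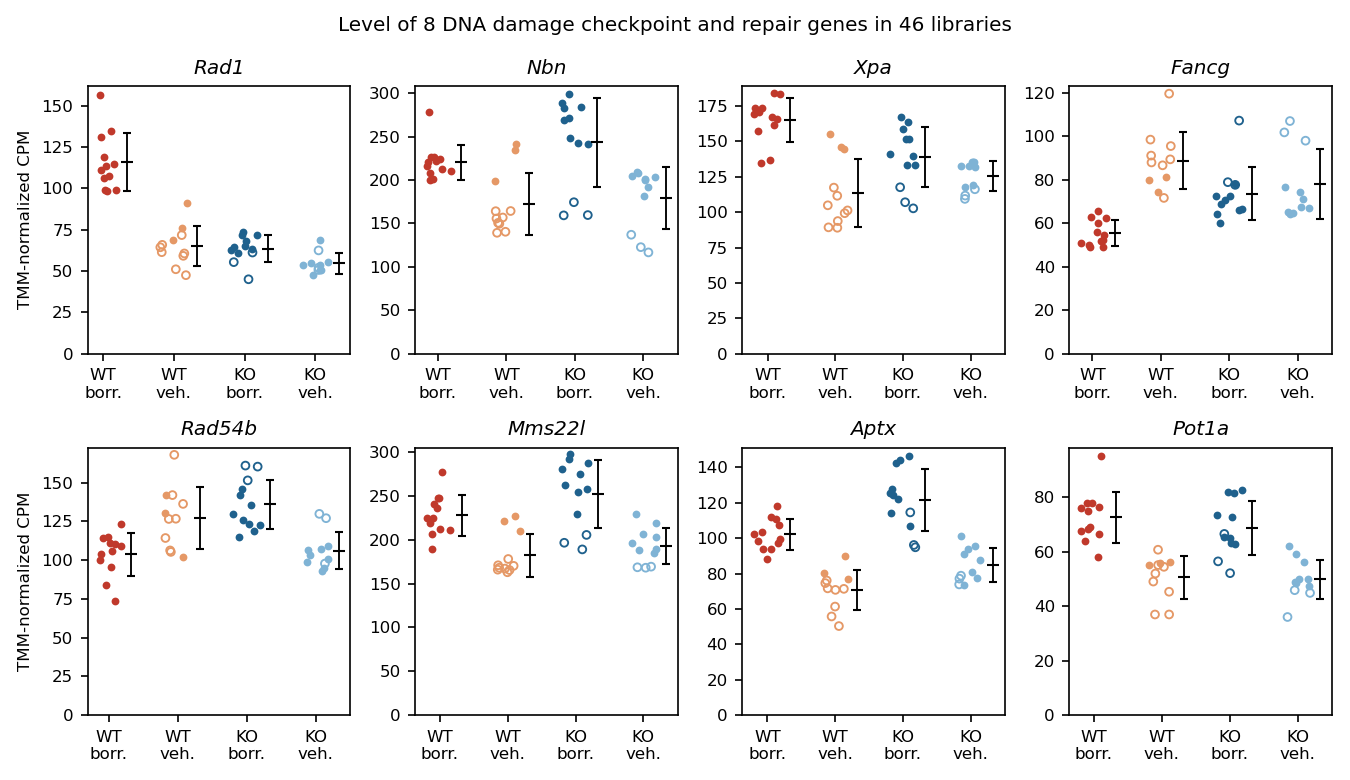
TMM-normalized CPM (y axis, from 0) of the 8 genes in the 46 libraries, 1 panel per gene, with 1 circle per library by group (x axis; WT, wild type; KO, ATF4 KO; borr., borrelidin; veh., vehicle). Open circles are the 14 libraries set apart, and black lines are the mean and SD of each group (n = 12, 11, 12 and 11). Rad1 in WT with borrelidin lies above all other libraries, and the open circles of Nbn and Mms22l lie at the low end of their groups.

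Rad1 and Nbn act where damage is sensed. Rad1 (ENSMUSG00000022248, chromosome 15, 10486018 to 10499063) is a subunit of the ring that also holds Rad9 and Hus1 and is loaded onto DNA to activate the kinase ATR. Its level in WT with borrelidin was 98.2 at the lowest, 113 at the median and 157 CPM at the highest library, against 47.5, 64.4 and 91.2 CPM in WT with vehicle. All 12 libraries of WT with borrelidin thus lay above all 11 with vehicle. In ATF4 KO the lowest, median and highest libraries were at 45.0, 63.8 and 73.8 CPM with borrelidin and at 47.7, 53.6 and 69.0 CPM with vehicle, and these groups overlapped. Rad1 rose in WT by 0.83 on the log2 scale (standard error 0.09, edgeR adjusted p = 6.7e-11), and by 0.56 without the libraries set apart (edgeR adjusted p = 0.00038). In ATF4 KO the change was 0.22 (edgeR adjusted p = 0.053), and 0.30 without the libraries set apart (edgeR adjusted p = 0.0057). Fitted on the ATF4 KO groups alone it was 0.22 without pairs and 0.20 with same-numbered libraries as pairs, and called in both (edgeR adjusted p = 0.027 and 0.035), whereas the replicate number as a block in the fit of all groups left it uncalled (0.20, edgeR adjusted p = 0.057). The response in ATF4 KO was lower than that in WT by 0.61 (difference -0.61, 95% interval -0.86 to -0.36, edgeR adjusted p = 0.00020). Without the libraries set apart the difference was -0.26 (95% interval -0.55 to 0.03, edgeR adjusted p = 0.29) and was no longer called. Under borrelidin all 12 libraries of ATF4 KO lay below all 12 of WT, a difference of -0.87 (edgeR adjusted p = 3.6e-12) that was -0.79 without the 3 set apart (edgeR adjusted p = 2.3e-11). With vehicle Rad1 was also lower in ATF4 KO than in WT, by -0.25 with all libraries and by -0.53 without those set apart (edgeR adjusted p = 0.023 and 0.00084).

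Nbn (ENSMUSG00000028224, chromosome 4, 15957925 to 15992589) encodes nibrin, the part of the Mre11-Rad50 complex that recruits the kinase ATM to double-strand breaks. In WT the lowest, median and highest libraries held 199.6, 219 and 278 CPM with borrelidin and 139, 157 and 241 CPM with vehicle. The 8 vehicle libraries set apart (139 to 164 CPM) lay below every borrelidin library, while the other 3 (199, 234 and 241 CPM) lay among them or just under. The WT change was accordingly 0.36 with all libraries (edgeR adjusted p = 0.0055) and -0.03 without those set apart (edgeR adjusted p = 0.87). In ATF4 KO the lowest, median and highest libraries were at 159, 259 and 299 CPM with borrelidin and at 117, 199.8 and 209 CPM with vehicle. Among the libraries set apart the 3 with borrelidin held 159 to 174 CPM and the 3 with vehicle 117 to 137 CPM. Among the others the 9 with borrelidin held 242 to 299 CPM and the 8 with vehicle 181 to 209 CPM, so the treatments did not overlap within either set. Nbn rose in ATF4 KO by 0.44 (standard error 0.11, edgeR adjusted p = 0.0019), and by 0.43 without the libraries set apart (edgeR adjusted p = 2.0e-07). The responses of the lines differed by 0.08 with all libraries (95% interval -0.24 to 0.40, edgeR adjusted p = 0.71) and by 0.46 without those set apart (95% interval 0.26 to 0.66, edgeR adjusted p = 0.0013). Under borrelidin Nbn was 0.14 higher in ATF4 KO than in WT (edgeR adjusted p = 0.28), and 0.29 higher without the libraries set apart (edgeR adjusted p = 1.6e-05).

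Xpa and Aptx serve the repair of damage on single strands. Xpa (ENSMUSG00000028329, chromosome 4, 46155347 to 46196311) binds damaged DNA and holds the nucleotide excision repair machinery together. Its lowest, median and highest libraries were at 135, 168 and 184 CPM in WT with borrelidin and at 89.0, 105 and 155 CPM in WT with vehicle. The groups overlapped only through the 3 vehicle libraries not set apart (145 to 155 CPM). Xpa rose in WT by 0.54 (standard error 0.09, edgeR adjusted p = 1.6e-06), but the change was 0.15 without the libraries set apart (edgeR adjusted p = 0.22). In ATF4 KO it held 103, 140.4 and 167 CPM at the lowest, median and highest library with borrelidin and 109, 132 and 136 CPM with vehicle, a change of 0.15 (edgeR adjusted p = 0.20) that was 0.20 without the libraries set apart (edgeR adjusted p = 0.011). The difference of response was -0.39 with all libraries (95% interval -0.64 to -0.14, edgeR adjusted p = 0.013) and 0.04 without those set apart (95% interval -0.17 to 0.25, edgeR adjusted p = 0.88). The difference was thus no longer called without those libraries, where its interval held both directions. Under borrelidin Xpa was lower in ATF4 KO than in WT by -0.25 (edgeR adjusted p = 0.013), and by -0.15 without the libraries set apart (edgeR adjusted p = 0.024). Xpa shares 77 exon bases with Ncbp1, a cap-binding protein gene on the other strand with a mean of 651 CPM, and the strand setting of the counting is not given in the sources used here, so reads of that stretch cannot be assigned with certainty.

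Aptx (ENSMUSG00000028411, chromosome 4, 40682382 to 40703194) encodes aprataxin, which removes adenylate left on DNA ends by failed ligation. The lowest, median and highest libraries were at 88.1, 101 and 118 CPM in WT with borrelidin and at 50.3, 71.6 and 89.8 CPM in WT with vehicle, with a narrow overlap. In ATF4 KO they were at 94.8, 123 and 146 CPM with borrelidin and at 73.5, 80.8 and 102 CPM with vehicle. Within ATF4 KO the overlap came from comparing across library sets, since in each set every borrelidin library lay above every vehicle library (94.8 to 115 against 73.9 to 78.8 CPM among those set apart, 107 to 146 against 73.5 to 102 CPM among the others). Aptx rose in WT by 0.53 (standard error 0.08, edgeR adjusted p = 5.2e-07) and in ATF4 KO by 0.52 (standard error 0.08, edgeR adjusted p = 1.2e-06). In the other 32 libraries it rose by 0.31 in WT (edgeR adjusted p = 0.026) and by 0.55 in ATF4 KO (edgeR adjusted p = 8.0e-08). The difference of response was -0.00 (95% interval -0.23 to 0.22) with all libraries and 0.24 (95% interval -0.01 to 0.49) without those set apart, and neither was called (edgeR adjusted p = 0.98 and 0.23). Aptx was 0.25 higher in ATF4 KO than in WT under borrelidin (edgeR adjusted p = 0.0061) and 0.26 higher under vehicle (edgeR adjusted p = 0.012). Of these, the difference under borrelidin was 0.33 without the libraries set apart (edgeR adjusted p = 4.7e-05), and that under vehicle was 0.09 (edgeR adjusted p = 0.62).

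Fancg, Rad54b and Mms22l belong to crosslink repair, recombination and the rescue of replication forks. Fancg (ENSMUSG00000028453, chromosome 4, 43002343 to 43010506) is a member of the Fanconi anemia core complex, the ubiquitin ligase that marks Fancd2 at crosslinks. Its lowest, median and highest libraries were at 49.1, 53.4 and 65.8 CPM in WT with borrelidin and at 71.7, 88.0 and 119.7 CPM in WT with vehicle, with no overlap. In ATF4 KO they were at 60.1, 71.5 and 107 CPM with borrelidin and at 64.3, 71.1 and 107 CPM with vehicle, and nearly coincided. Among the libraries set apart the 3 with borrelidin held 77.7, 78.9 and 107 CPM and the 3 with vehicle 98.1, 102 and 107 CPM. Among the others the 9 with borrelidin held 60.1 to 78.2 CPM and the 8 with vehicle 64.3 to 76.8 CPM. Fancg fell in WT by 0.68 on the log2 scale (standard error 0.09, edgeR adjusted p = 5.9e-08), and by 0.50 without the libraries set apart (edgeR adjusted p = 5.2e-05). The change in ATF4 KO was -0.08 (95% interval -0.27 to 0.10, edgeR adjusted p = 0.53), and -0.00 without the libraries set apart (95% interval -0.14 to 0.14). The responses of the lines differed by 0.60 (95% interval 0.33 to 0.86, edgeR adjusted p = 0.00059), and by 0.50 without the libraries set apart (edgeR adjusted p = 0.0024). With the library set fitted as a block the WT change was -0.39 and the difference of response 0.32 (edgeR adjusted p = 0.00019 and 0.023). Under borrelidin Fancg was 0.41 higher in ATF4 KO than in WT (edgeR adjusted p = 0.00022), and 0.31 higher without the libraries set apart (edgeR adjusted p = 6.5e-05), while under vehicle the difference was -0.18 with all libraries and -0.19 without those set apart (edgeR adjusted p = 0.12 and 0.16).

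Rad54b (ENSMUSG00000078773, chromosome 4, 11558922 to 11615805) is a motor protein that moves along DNA and acts in homologous recombination. Its lowest, median and highest libraries were at 73.3, 107 and 124 CPM in WT with borrelidin and at 102, 127 and 168 CPM in WT with vehicle. In ATF4 KO the order of the treatments was the opposite, with 115, 133 and 161 CPM with borrelidin and 93.3, 104 and 129.9 CPM with vehicle. Within each library set of ATF4 KO all borrelidin libraries lay above all vehicle libraries (152 to 161 against 97.8 to 129.9 CPM among those set apart, 115 to 146 against 93.3 to 109 CPM among the others). Rad54b fell in WT by 0.29 (standard error 0.08, edgeR adjusted p = 0.0018) and rose in ATF4 KO by 0.36 (standard error 0.08, edgeR adjusted p = 0.00052). With the 14 libraries left out the change was -0.27 in WT (edgeR adjusted p = 0.064) and 0.34 in ATF4 KO (edgeR adjusted p = 0.00050). The responses of the lines differed by 0.65 (95% interval 0.42 to 0.88, edgeR adjusted p = 2.4e-05), and by 0.61 without the libraries set apart (edgeR adjusted p = 0.0011). Rad54b was 0.39 higher in ATF4 KO than in WT under borrelidin (edgeR adjusted p = 5.2e-05) and lower by -0.26 under vehicle (edgeR adjusted p = 0.010). Both calls were also made without the libraries set apart (0.31 and -0.30, edgeR adjusted p = 0.00031 and 0.043). Rad54b shares 2068 exon bases with Fsbp on the same strand (7.72 CPM), and counting could have left reads of that stretch unassigned, which was not tested.

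Mms22l (ENSMUSG00000045751, chromosome 4, 24496451 to 24602950) works with Tonsl in the rescue of stalled replication forks. The lowest, median and highest libraries held 189, 225 and 277 CPM in WT with borrelidin and 163, 170.4 and 228 CPM in WT with vehicle. All 8 vehicle libraries set apart (163 to 178 CPM) lay below the borrelidin libraries, and the other 3 (209.9 to 228 CPM) lay among them. The WT change was 0.32 with all libraries (edgeR adjusted p = 0.00048) and 0.06 without those set apart (edgeR adjusted p = 0.71). In ATF4 KO the lowest, median and highest libraries held 189, 261 and 299 CPM with borrelidin and 168, 189.7 and 230.1 CPM with vehicle, and overlapped. Mms22l rose in ATF4 KO by 0.39 (standard error 0.08, edgeR adjusted p = 0.00012), and by 0.42 without the libraries set apart (edgeR adjusted p = 1.2e-06). The difference of response was 0.06 with all libraries (95% interval -0.16 to 0.28, edgeR adjusted p = 0.68) and 0.36 without those set apart (95% interval 0.15 to 0.58, edgeR adjusted p = 0.020). As for Nbn, the lines were called different in their response without the libraries set apart. They were not in the fit of group means to all 46 libraries.

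Pot1a (ENSMUSG00000029676, chromosome 6, 25743737 to 25809246) binds the single-stranded end of telomeres within shelterin and keeps the checkpoint kinase ATR from acting there. Its lowest, median and highest libraries were at 58.2, 71.9 and 95.3 CPM in WT with borrelidin and at 36.9, 54.4 and 60.7 CPM in WT with vehicle, with a narrow overlap. In ATF4 KO they were at 52.1, 65.9 and 82.7 CPM with borrelidin and at 36.0, 48.9 and 62.1 CPM with vehicle, and did not overlap within either library set. Those set apart held 52.1 to 66.5 CPM with borrelidin and 36.0 to 45.8 CPM with vehicle. Among the others the gap was narrow, with 62.7 to 82.7 CPM against 47.4 to 62.1 CPM. Pot1a rose in WT by 0.52 (standard error 0.09, edgeR adjusted p = 4.7e-06) and in ATF4 KO by 0.46 (standard error 0.09, edgeR adjusted p = 7.5e-05). In the 32 libraries not set apart it rose by 0.38 in WT (edgeR adjusted p = 0.014) and by 0.45 in ATF4 KO (edgeR adjusted p = 3.0e-05). The difference of response was -0.06 (95% interval -0.31 to 0.19, edgeR adjusted p = 0.74) with all libraries and 0.07 (95% interval -0.22 to 0.35) without those set apart. Neither was called, and intervals of this width do not show that the lines responded alike. Aptx and Pot1a were the genes called higher with borrelidin in both lines, with all libraries and without those set apart. Rad1 was also called higher in both lines without those set apart. With all libraries it missed the call in ATF4 KO (edgeR adjusted p = 0.053). The promoter words were chosen after the windows had been read, and any link between a word and these calls was not tested.

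**Figure D2:**
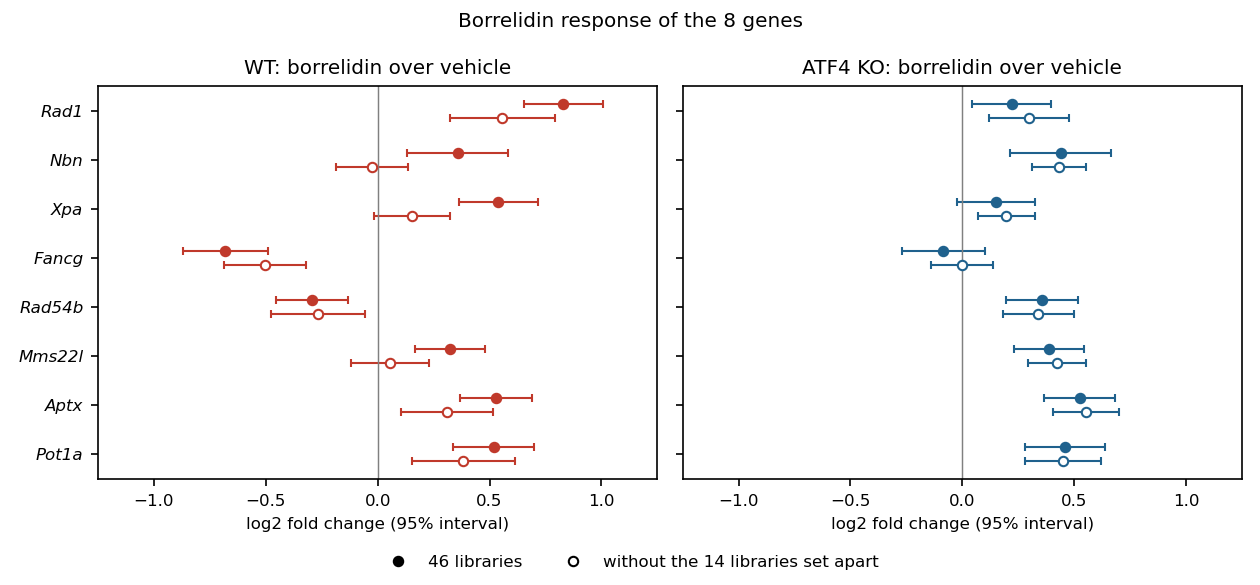
Log2 fold change of borrelidin over vehicle (x axis) for the 8 genes (y axis) in WT (left) and ATF4 KO (right), with 95% intervals from edgeR. Filled circles use 46 libraries and open circles leave out the 14 set apart. In WT the values of Nbn, Xpa and Mms22l lie at 0.36, 0.54 and 0.32 with all libraries and at -0.03, 0.15 and 0.06 without those set apart, while in ATF4 KO filled and open circles lie close together.

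In WT all 8 genes were called at an edgeR adjusted p under 0.05, 6 of them higher with borrelidin (26.5% of all tested rows were called higher) and 2 lower (32.9% called lower). Of the 344 tested rows of the stretches, 41.9% were called higher and 17.2% lower. With a share of this size passing, a call in WT sets a gene little apart. The median change of the 8 genes was 0.44, against -0.06 over the 8986 rows tested and 0.17 over those of the stretches. At a stricter 1e-10, which the study used for some of its gene sets, Rad1 alone was called (2.11% of rows). That call was lost in 7 of 11 alternatives, among them median ratio scaling, a model of ATF4 activity and genotype, the WT groups fitted alone and the fit without WT with borrelidin replicate 10 (edgeR adjusted p = 1.2e-10, 5.3e-10, 6.6e-08 and 1.7e-10). Rad1 was also the only gene whose borrelidin libraries all lay above the vehicle libraries (4.06% of rows), and Fancg the only one in which they all lay below (2.19%). Without the libraries set apart 4 genes were called in WT (18.7% of rows and 28.0% of those of the stretches). Of these, Rad1, Aptx and Pot1a were higher and Fancg was lower. Then Rad1 and Pot1a had no overlap in the higher direction (5.90% of rows) and Fancg in the lower (5.23%). In that comparison WT with vehicle had 3 libraries.

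In ATF4 KO 5 genes were called, all higher with borrelidin: Nbn, Rad54b, Mms22l, Aptx and Pot1a. Of all rows tested 15.0% were called higher, and of those of the stretches 25.6%. The median change of all 8 genes was 0.37, against -0.03 over all rows tested and 0.03 over those of the stretches. No gene passed 1e-10. In the other 32 libraries 7 genes were called, all higher, and Fancg was the exception. There 21.7% of all rows and 31.8% of those of the stretches were called higher. Treatments did not overlap for 5 genes among the libraries set apart (11.2% of rows, 3 against 3 libraries), and for 4 genes among the others (7.09% of rows). In both sets at once this held for Nbn, Rad54b, Aptx and Pot1a (3.67% of rows).

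The test of whether ATF4 KO and WT responded differently called 4 genes (33.6% of rows and 43.6% of those of the stretches). The difference was positive for Fancg and Rad54b and negative for Rad1 and Xpa. With the 14 libraries left out 4 genes were again called (9.90% of rows and 19.1% of those of the stretches). These were Nbn, Fancg, Rad54b and Mms22l, all positive. Fancg and Rad54b were thus called in both fits. Both responses share no control samples, but each rests on its own vehicle group, and the WT vehicle group was mostly made of libraries set apart.

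**Figure D3:**
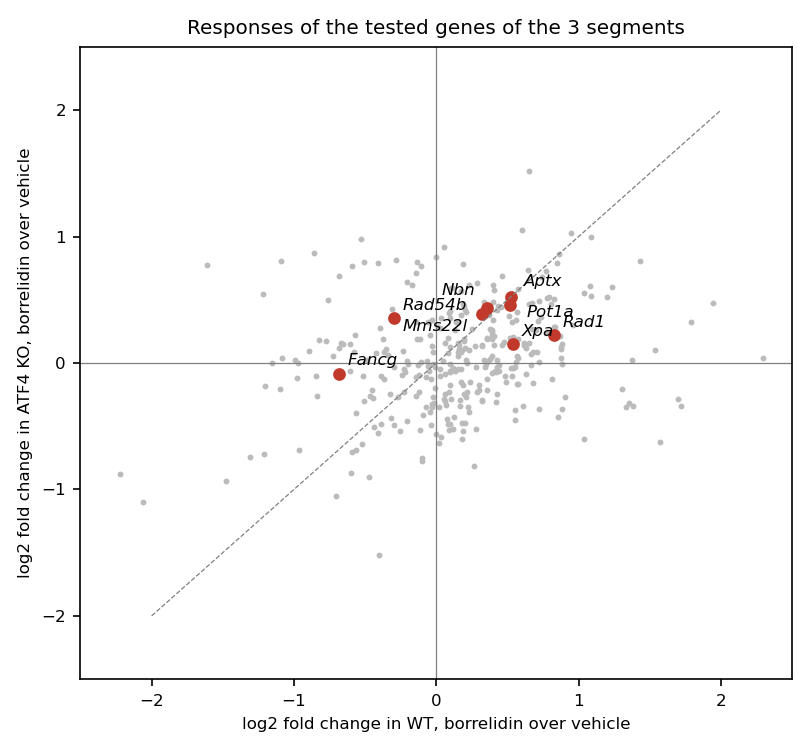
Log2 fold change of borrelidin over vehicle in ATF4 KO (y axis) against that in WT (x axis), with all libraries, for the 344 tested rows of the 3 stretches (grey) and the 8 genes (red). Points on the dashed line changed alike in both lines. Rad54b lies at -0.29 in WT and 0.36 in ATF4 KO, and Fancg at -0.68 and -0.08, both above the line, while Rad1 lies at 0.83 and 0.22, below it.

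Between the lines under borrelidin, 5 genes were called (49.8% of rows): Fancg, Rad54b and Aptx were higher and Rad1 and Xpa were lower in ATF4 KO than in WT. Rad1 passed 1e-10 (5.49% of rows), also in 9 of 10 alternatives, and was the gene with no overlap (6.09% of rows in the lower direction, and 7.55% without the libraries set apart). Without those libraries 7 genes were called (54.3% of rows), Nbn and Mms22l being added as higher in ATF4 KO (0.29 and 0.25, edgeR adjusted p = 1.6e-05 and 0.00040, against 0.14 and 0.15 with all libraries). Pot1a was not called (-0.08, 95% interval -0.26 to 0.09, and -0.01 without the libraries set apart). Under vehicle 3 genes were called (35.3% of rows), with Aptx higher and Rad1 and Rad54b lower in ATF4 KO. In the 32 libraries not set apart Rad1 and Rad54b were called (21.2% of rows).

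**Figure D4:**
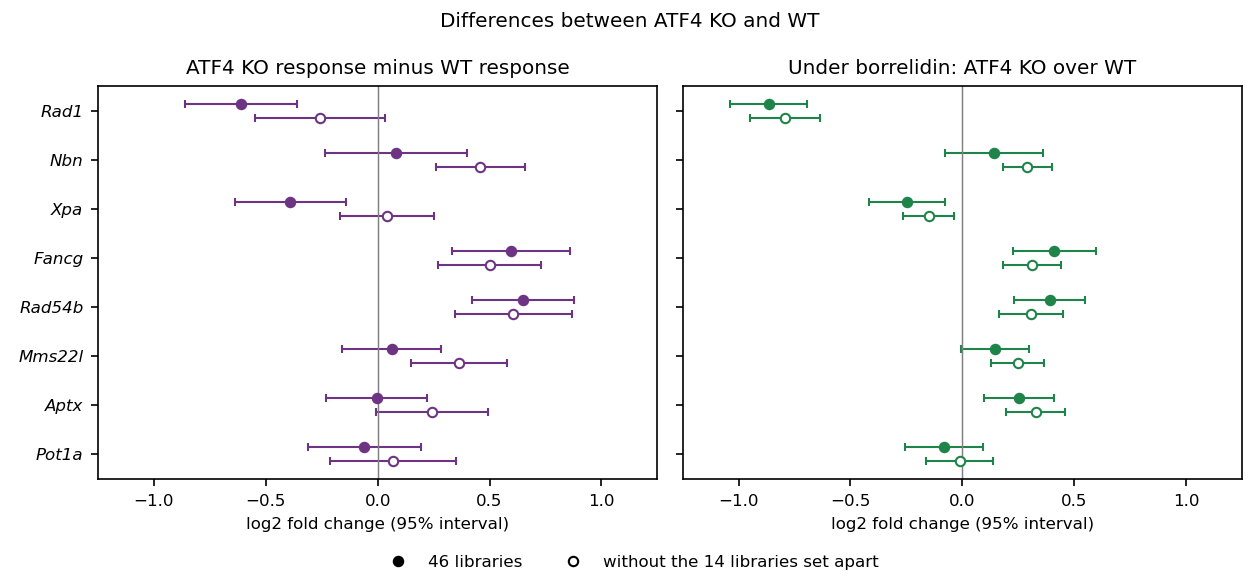
Left, response of ATF4 KO minus response of WT, and right, ATF4 KO over WT under borrelidin, as log2 values (x axis) with 95% intervals from edgeR for the 8 genes (y axis). Filled circles use 46 libraries and open circles leave out the 14 set apart. Fancg and Rad54b lie right of 0 in both panels, and Rad1 under borrelidin lies at -0.87 and -0.79.

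The libraries set apart differed in level from the others of their own group, and the ratio varied with the gene. For Nbn the mean of those set apart was 0.679 times that of the others in WT with vehicle, 0.609 times in ATF4 KO with borrelidin and 0.627 times in ATF4 KO with vehicle. Ratios for Mms22l were 0.768, 0.727 and 0.834 in the same groups. Fancg went the other way, with ratios of 1.18, 1.28 and 1.49. The libraries set apart were 8 of 11 in WT with vehicle and 0 of 12 in WT with borrelidin. Their part in the WT changes is seen by leaving them out or by fitting the library set as a block. They were picked by second component scores of these same data. In WT with vehicle those left out scored -19.9 to -13.8 and those kept -0.43 to 1.52, against 6.37 to 9.72 with borrelidin. Leaving them out keeps the vehicle libraries nearest to borrelidin on that component and can make WT changes smaller. How far it did so was not tested. What set the libraries apart was not tested.

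Levels of the 8 genes varied together only in part. Over the 46 libraries the 28 pairs had a Pearson r of -0.77 to 0.89 on log2 CPM (median 0.38), and after the mean of each group and library set was taken off, the median was 0.21 (-0.17 to 0.54). The highest pair was Mms22l with Nbn (0.89), genes that share the low level in the libraries set apart. Among 290 protein-coding genes of the stretches, the one most like Rad1 was Tars, the threonyl-tRNA synthetase that borrelidin inhibits (r = 0.93). For Nbn it was Exosc3, a subunit of the RNA exosome (r = 0.90), for Aptx Tmem209 (r = 0.90) and for Xpa Smu1, a splicing factor (r = 0.87). For Pot1a it was Osgin2 (r = 0.85) and for Fancg Npr2, a natriuretic peptide receptor (r = 0.82). Rad54b had the weakest best match, Stx17, a syntaxin of autophagosomes (r = 0.63). These values describe libraries that share groups, sets and depth, and carry no p.

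Other genes of DNA repair in the stretches numbered 12 on the list used, of which 11 were tested. With borrelidin 7 were called higher and 0 lower in WT (26.5% and 32.9% of all rows), and 4 higher and 5 lower in ATF4 KO (15.0% and 15.3% of all rows). Of the tested rows of the stretches, 41.9% were called higher and 17.2% lower in WT, and 25.6% and 16.0% in ATF4 KO. Without the libraries set apart the calls were 2 higher and 3 lower in WT (9.99% and 8.70% of all rows), and 4 higher and 6 lower in ATF4 KO (21.7% and 20.1%). The shares of the stretches were then 16.5% higher and 11.6% lower in WT, and 31.8% and 23.7% in ATF4 KO. Zc3hc1, a regulator of entry into mitosis, changed by 1.08 in WT and 0.61 in ATF4 KO (edgeR adjusted p = 4.4e-08 and 0.0010), and by 0.42 and 0.63 without the libraries set apart. Usp45, which removes ubiquitin from Ercc1, a subunit of a repair nuclease, changed by 0.32 in WT and -0.29 in ATF4 KO (edgeR adjusted p = 0.00091 and 0.0047), and by -0.05 and -0.28 without the libraries set apart. Sub1, a coactivator of transcription that binds single-stranded DNA, held 210.2 ± 37.2 CPM with borrelidin and 292 ± 39.6 CPM with vehicle in ATF4 KO (SD, n = 12 and 11), a change of -0.48 (edgeR adjusted p = 0.00010) that was -0.44 without the libraries set apart (edgeR adjusted p = 2.1e-06). Its change in WT was 0.20 with all libraries and -0.11 without those set apart (edgeR adjusted p = 0.059 and 0.47). The difference of response was -0.68 with all libraries (edgeR adjusted p = 0.00013) and -0.34, no longer called, without those set apart (edgeR adjusted p = 0.057).

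Of 7 listed genes of the checkpoint and the cell cycle, all tested, 3 were called higher and 0 lower in WT (59.4% of all rows were called in either direction), and 0 higher and 3 lower in ATF4 KO (30.3% of all rows). Of the tested rows of the stretches, 59.0% were called in WT and 41.6% in ATF4 KO. In the other 32 libraries the calls were 1 higher and 2 lower in WT (18.7% of all rows) and 1 higher and 5 lower in ATF4 KO (41.8%). The shares of the stretches were then 28.0% in WT and 55.5% in ATF4 KO. Trp53inp1, a target of p53 that takes part in cell death and autophagy, held 31.4 ± 5.51 CPM with borrelidin and 21.4 ± 4.31 CPM with vehicle in WT (SD, n = 12 and 11). In ATF4 KO it held 36.9 ± 7.52 CPM with borrelidin and 47.8 ± 11.1 CPM with vehicle. Its responses were 0.55 in WT and -0.37 in ATF4 KO, and 0.79 and -0.44 without the libraries set apart. They differed by -0.92 (edgeR adjusted p = 8.0e-05) and by -1.23 without the libraries set apart (edgeR adjusted p = 0.00020). Skp2, which marks cell cycle inhibitors for destruction, changed in ATF4 KO by -0.56, and by -0.59 without the libraries set apart (edgeR adjusted p = 5.3e-09 and 7.0e-12). In WT it changed by 0.0006 with all libraries and by -0.30 without those set apart (edgeR adjusted p = 0.99 and 0.0011). The difference of response was -0.56 (edgeR adjusted p = 1.2e-05), and -0.30 without the libraries set apart (edgeR adjusted p = 0.021). Direct partners of the 8 genes, among them Rad9a, Hus1, Mre11a, Atm, Atr and Tonsl, lie outside the stretches (0 of 34 inside) and were not read.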

How the data were processed

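RNA-seq libraries of MEFs (12 of WT with borrelidin, 11 of WT with vehicle, 12 of ATF4 KO with borrelidin, 11 of ATF4 KO with vehicle) were grouped by the sample labels. Reads were aligned with HISAT2, and the authors deposited the resulting counts for every mouse gene identifier as whole numbers, unnormalized and 1 column per library. The submitters' processing notes name HTSeq, limma and mm10, whereas the methods name feature counts. No version, annotation release or strand setting is stated in those sources. The 5 closing rows that name no gene were left out of library sizes and tests. Their mean shares of a library were 69.0% for reads in no feature, 10.8% for unaligned reads, 5.09% for reads of low mapping quality, 3.97% for reads with more than 1 placement and 0.251% for ambiguous reads. Counts of reads are not counts of molecules, and precision follows the 2047362 to 3467765 counts per library.

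The 4 group means were fitted by edgeR 4.0.16 (R 4.3.3) with its quasi-likelihood method, after TMM scaling and the filterByExpr filter on low counts. Contrasts of these means were tested over 8986 rows, with Benjamini-Hochberg adjustment over all of them, and a call at 0.05. Alternatives used DESeq2 1.42.0, limma 3.58.1 and other scalings, filters, designs and libraries. Tables were made in Python 3.11.15. Levels are TMM-normalized counts per 1000000 (CPM), and correlations used log2(CPM + 0.5). Libraries were set apart where the widest gap of second component scores in a group exceeded 50% of its range. On simulated counts of the 8986 rows, changes of 0.5 on the log2 scale were called in 41.8% of cases for borrelidin in WT, 41.8% in ATF4 KO and 13.4% for the difference of response, and changes of 1 in 94.0%, 85.1% and 77.6%. Each of these sizes was given to 67 rows in a single group, with no library sets, whereas 59.4% of the real rows were called in WT. The rates therefore need not hold for the real counts.

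Genes named were the 8 members, the 2 genes of each list with the smallest p in ATF4 KO and in the difference of response, and for each member the protein-coding gene of the stretches with the highest r. The members, the stretches and the lists were chosen with earlier results of these data known. Every pair of libraries of a group differed by more than counting noise (chi-square over its degrees of freedom was 1.96 or more). Libraries with the same replicate number deviated together from their group means for all 11 pairs between ATF4 KO with borrelidin and ATF4 KO with vehicle (each r over 0.1, lowest 0.18 and highest 0.78). The numbers were taken as pairs there in alternative fits only. The libraries set apart carried the same numbers in both of these groups, and deviations were from the mean of the whole group. Libraries of a set can thus deviate together whatever their numbers, and libraries of different numbers were not compared. These r values therefore cannot show that the numbers are pairs. Same-numbered libraries passed 0.1 in 2 of 11 pairs between the WT groups, in 5 of 10 between lines under vehicle and in 3 of 12 under borrelidin.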

Additional observations from a re-analysis of the deposited data

Results flagged for a closer look

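For 4 of the 8 genes the borrelidin response of ATF4 KO differed from that of WT in edgeR's test of the difference itself, with all libraries. The difference was 0.65 on the log2 scale for Rad54b, the recombination motor protein, and 0.60 for Fancg, of the Fanconi anemia core complex (edgeR adjusted p = 2.4e-05 and 0.00059). Without the 14 libraries set apart it was 0.61 and 0.50 (edgeR adjusted p = 0.0011 and 0.0024), and with the library set as a block 0.52 and 0.32 (edgeR adjusted p = 0.00045 and 0.023). For Rad1, of the checkpoint clamp, it was -0.61 (edgeR adjusted p = 0.00020), and for Xpa, of nucleotide excision repair, it was -0.39 (edgeR adjusted p = 0.013). Without the libraries set apart these were -0.26 and 0.04 (edgeR adjusted p = 0.29 and 0.88). With all libraries 33.6% of all rows tested and 43.6% of those of the stretches were called at this threshold.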

How the results depend on the processing

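Of 408 values of the 8 genes under alternatives, 346 kept their direction and their side of the threshold, 23 lost a call, 16 gained one and 23 changed sign (0 of them called in both fits, 5 in either). For the difference of response 5 of 72 values gained a call, among them Nbn and Mms22l without the libraries set apart, and 3 lost one. The cause of these moves was not tested beyond what each alternative leaves out. With the replicate block in the fit of all groups, 40 of 40 values kept their direction and their side of the threshold. Fits of the ATF4 KO groups alone called Rad1 there both with the replicate block (0.20, edgeR adjusted p = 0.035) and without it (0.22, edgeR adjusted p = 0.027). Leaving out WT with borrelidin replicate 10, the library of lowest depth and the highest in Rad1, an alternative chosen after seeing the data, changed 0 of 24 at 0.05, and Rad1 in WT then missed 1e-10. At 1e-10 the 8 genes gave 1 call in WT, 0 in ATF4 KO, 0 for the difference of response, 0 under vehicle and 1 under borrelidin, and all rows gave 190, 44, 45, 236 and 493, against 5337, 2721, 3022, 3172 and 4474 at 0.05. With no filter on low counts 1 gene was called under vehicle (9.48% of rows) and 3 under borrelidin (12.7% of rows), and Pot1a under vehicle was 0.026.

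In WT the library set as a block gave 5 genes and 2681 rows (29.8%), and leaving out the libraries set apart gave 4 and 1661 (18.7%), with Nbn at -0.095 and -0.026. The WT calls of Mms22l and Rad54b were also lost with the block (0.06 and -0.16). The block also moved Xpa, Fancg, Aptx and Pot1a in WT to 0.26, -0.39, 0.33 and 0.32 and the difference of Fancg to 0.32, all still called. Among the libraries set apart alone 4 genes and 738 rows (7.96%) were called in ATF4 KO, and 1 gene and 2528 rows (25.98%) under vehicle. For the difference of response the block gave 1829 rows, and leaving them out gave 880, with Aptx at 0.19 and 0.24, Pot1a at 0.13 and 0.07, and Xpa at 0.041 without them. Aptx was 0.0027 with median ratio scaling and 0.0025 with DESeq2. Under vehicle 1881 rows were called without the libraries set apart. Nbn there was -0.24 with the block, -0.17 without those libraries and -0.30 within them alone. Mms22l was -0.080, -0.12 and -0.020 in the same order, Xpa was -0.027 with the block and -0.19 without them, and Fancg was 0.13 within them alone.

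TMM factors from the rows of the stretches moved the median of all rows in WT from -0.06 to -0.28, and the split of calls there became 1476 higher and 4356 lower, against 2379 and 2958. The split became 2316 and 1065 for the difference (1536 and 1486 before) and 1160 and 1944 under vehicle (1625 and 1547 before). With this scaling Nbn and Mms22l lost their WT calls (0.15 and 0.11, edgeR adjusted p = 0.067 and 0.052) and Aptx and Pot1a had a difference of 0.15 and 0.11, while Xpa, Rad54b, Aptx and Pot1a in WT were called at 0.34, -0.52, 0.32 and 0.30. Nbn and Mms22l under vehicle were -0.044 and -0.017.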
